A study of Oryza sativa with 18 samples.

Results

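Among 64687 genes listed in crown root tips of Kitaake, a japonica rice cultivar, 65 were silent in wild-type (WT) plants and counted in at least 1 of 2 lines edited in jasmonate (JA) receptor genes. Silent means a summed count of at most 11 over the 6 WT libraries, and counted means a mean of at least 0.3 CPM (a gene's count divided by the total of its library and multiplied by 1000000) over the 6 libraries of an edited line. By this rule 18 genes were counted in both edited lines, 17 in oscoi1ab alone and 30 in oscoi2 alone. They include OsPME1, a pectin methylesterase gene, OsJAZ15, a gene of the JAZ repressors of JA signalling, and 15 genes that the annotation describes as transposon or retrotransposon proteins. The levels that chose the members are given as a description, without a test. The CPM minimum does not allow for gene length, so levels are not compared between genes.

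JA acts through the F-box protein COI, which binds JAZ repressors in the presence of the hormone and marks them for degradation, so that transcription factors held back by JAZ proteins become active. Rice has 3 COI genes, OsCOI1a, OsCOI1b and OsCOI2. A gene without transcripts in a tissue can be switched off by lack of its activators, or it can be kept silent by DNA methylation and compact chromatin, the usual state of transposable elements in plants. Transposons of the hAT, CACTA and Pong types move as DNA, whereas retrotransposons copy themselves through RNA. The deposited values are transcript counts only, and neither DNA methylation nor sequence differences between the lines were analysed here.

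WT plants are unedited Kitaake. The line oscoi1ab is a homozygous T3 line of the Kitaake background with a small deletion each in OsCOI1a and OsCOI1b, and oscoi2 is another such line with deletions in OsCOI2. Plants of each genotype, 6 days old, were kept in liquid medium for 6 h with DMSO (mock) or 5 µM JA, and root tips of about 1 cm from 20 to 24 plants were pooled for each sample. Each of the 6 groups has 3 libraries, 18 in all. Each genotype is represented by 1 line, so the edited genes and the history of a line through transformation and regeneration cannot be told apart. The 6 WT libraries serve as the reference of both lines, so the 2 comparisons with WT share them.

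The lines are defined by the sites at which the Cas9 nuclease was directed, which are printed here because they separate the groups. Each site is given 5′ to 3′ as the study lists it, with the protospacer in lower case and the adjacent PAM in capitals.
oscoi1a_gRNA: tgctggaggagcattctacgAGG
oscoi1b_gRNA: ccacatgaccgaactcacagTGG
oscoi2_gRNA1: ttcgacaattgcgcacaaggAGG
oscoi2_gRNA2: atattacaagactttgccggTGG
In the Kitaake assembly made for the study, oscoi1a_gRNA lies at chr1:37388017-37388039 and oscoi1b_gRNA at chr5:22293993-22294015, both listed as forward. The oscoi2 guides lie at chr3:8796630-8796652 (oscoi2_gRNA1, reverse) and chr3:8796721-8796743 (oscoi2_gRNA2, forward). The 65 members have no coordinates in the count table, and their places are given by the order of their identifiers.

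Library totals lay between 99657931 and 113672521 counts. A count is not a read: within a narrow range of spacings searched, low values were most frequent at a spacing of 3.72 (median over libraries). The spacing was weak, with 34.1% of low values near a multiple of it, against 26.7% of whole numbers. A floor of 11.1 counts (3 read pairs of 3.7 assumed counts each, 0.107 CPM on average in WT libraries) is taken as the level below which a value is not distinguished from 0. Counts and folds over the floor depend on this assumption. The edited genes were compared first. OsCOI1a had 101.6 ± 21.7 CPM in WT and 20.7 ± 6.55 CPM in oscoi1ab under mock (SD, n = 3), a log2FC of -2.32 (standard error 0.30, FDR 0.00121 by edgeR's quasi-likelihood test). OsCOI2 had 48.6 ± 9.09 CPM in WT and 26.1 ± 2.00 CPM in oscoi2 (SD, n = 3), a log2FC of -0.84 (standard error 0.14, FDR 0.0044) that lay under the fold minimum of 1 for a call. OsCOI1b had 149.7 ± 11.2 CPM in WT, 126.8 ± 9.15 CPM in oscoi1ab and 98.3 ± 11.1 CPM in oscoi2 (SD, n = 3), with log2FC values of -0.26 (FDR 0.995) and -0.55 (FDR 0.011) by edgeR's quasi-likelihood test, neither called. A frameshift need not lower a transcript, so OsCOI1b is no check of the labels. All 7 root marker genes were detected in every group, and their summed level was 5981 to 8075 CPM in the mock libraries of the 3 genotypes. After JA it was 2904 to 3855 CPM in WT, 3166 to 3684 CPM in oscoi1ab and 5140 to 5797 CPM in oscoi2. The 44 photosynthesis genes used as leaf markers summed to 1016 to 2618 CPM in WT, 1365 to 2784 CPM in oscoi1ab and 383 to 1002 CPM in oscoi2 under mock.

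All 6 WT libraries had 0 counts for 42 of the 65 genes, 20 genes had counts in 1 WT library, and 3 genes in 2 or more (LOC_Os01g10940, LOC_Os01g36064 and LOC_Os04g24770, with sums of 3 to 5). The highest summed WT count was 10, in Os01g0651400, and the first gene outside had 12. At the other limit, Os03g0309250 lay just inside in oscoi1ab with 0.3002 CPM and LOC_Os01g56260 just outside with 0.2996 CPM, and in oscoi2 Os01g0651400 was inside with 0.305 CPM and Os07g0451101 outside with 0.290 CPM. The 65 genes together made up 0.0401 to 0.627 CPM of a WT library, 43.7 to 111.8 CPM of an oscoi1ab library and 108.7 to 171.8 CPM of an oscoi2 library.

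**Figure D1:**
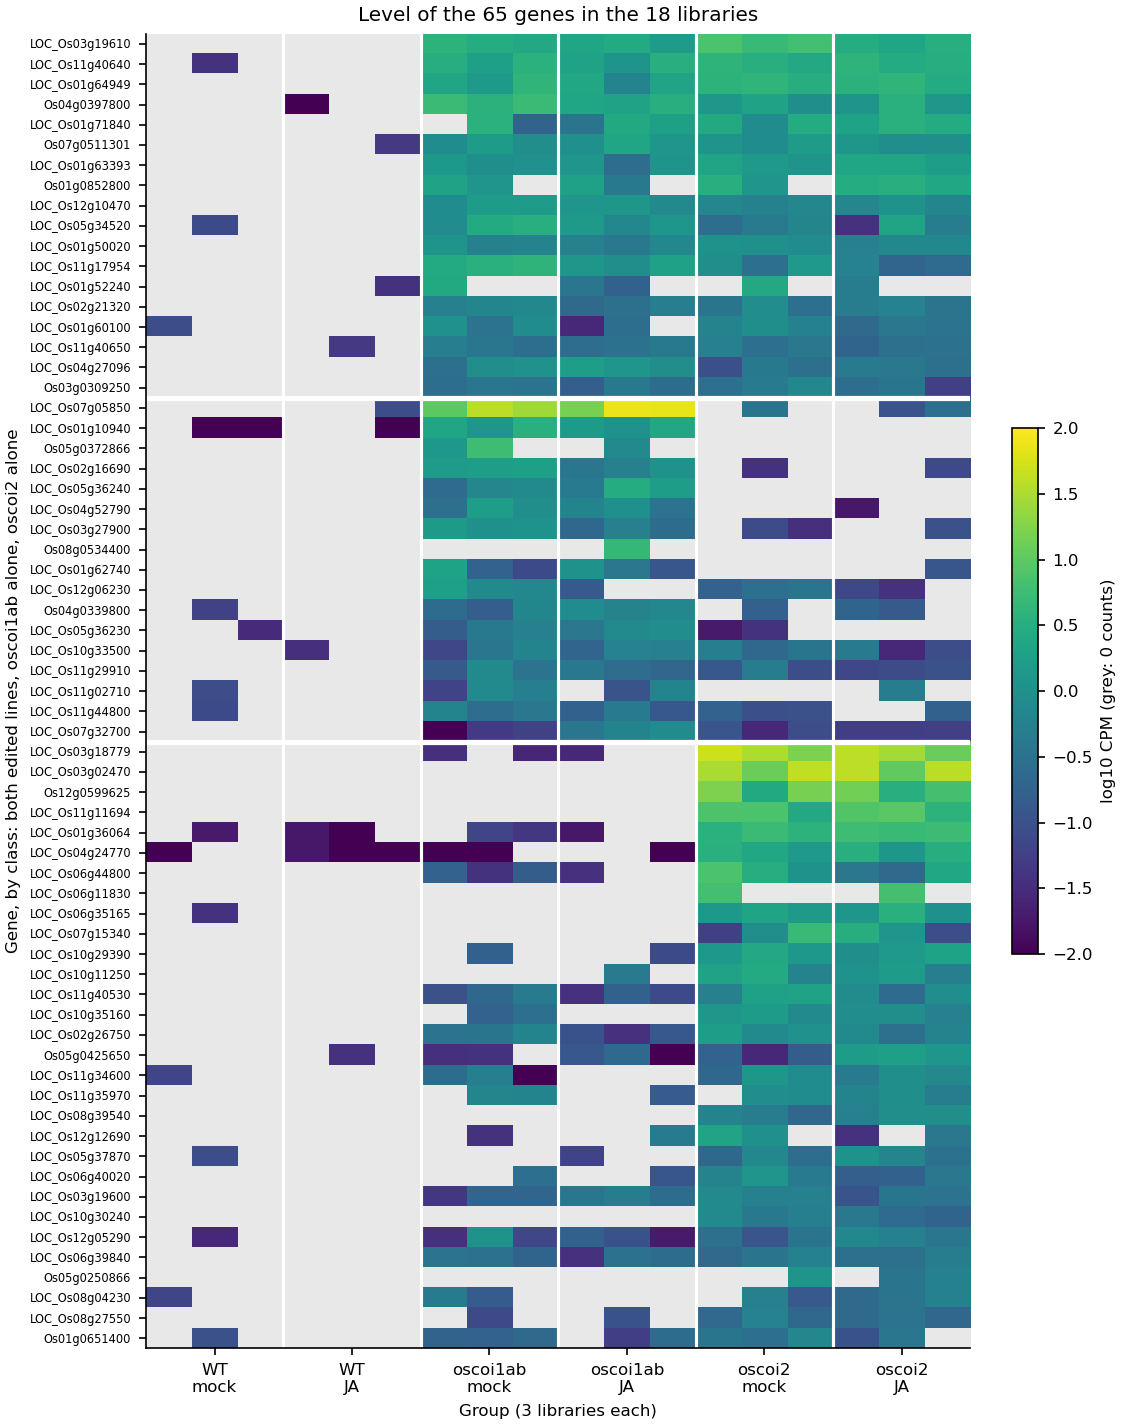
Level of each of the 65 genes (rows) in each of the 18 libraries (columns, 3 per group), as log10 CPM with 0 counts in grey. The rows are ordered by class (18 genes in both edited lines, 17 in oscoi1ab alone, 30 in oscoi2 alone), and within a class by mean CPM (the lower of the 2 line means for the first class). The WT columns are mostly grey, and the single-line classes are bright in 1 line.

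The same rule was applied with each edited line as the silent genotype. It found 33 genes silent in oscoi1ab, of which 8 were counted in both other genotypes and 17 only in oscoi2, and 56 genes silent in oscoi2, of which 32 were counted in both other genotypes and 9 only in oscoi1ab. The 18 genes silent in WT and counted in both edited lines thus lie between the 8 and the 32 of the same form. Another 7 genes were silent in both edited lines and counted in WT. With the strict limit also set for the second line, 12 genes were silent in WT and oscoi1ab and counted in oscoi2, and 6 were silent in WT and oscoi2 and counted in oscoi1ab.

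A description from the study's tables was at hand for 48 of the 65 genes. Of these, 25 are hypothetical, expressed or non-coding genes, 15 are transposon or retrotransposon proteins and 8 have a named product. The tables describe genes the study listed as changed, so no share over all genes can be set beside these counts. Among the 15 transposon genes are 6 unclassified retrotransposons, 3 of the CACTA (En/Spm) type, 3 of the hAT or Ac/Ds type, 2 of the Pong type and 1 unclassified transposon. All 3 hAT or Ac/Ds genes were counted in oscoi2 alone. By identifier, 40.0% of the members exist in the MSU annotation only, against 8.21% of the 30907 genes tested. The classes differed, with 38.9% of the both-line genes, 17.65% of the oscoi1ab genes and 53.3% of the oscoi2 genes. With a mean under 1 CPM over all libraries, it was 42.3% of the members and 21.1% of the genes tested. The share of all 64687 genes listed was 36.8%, but these include genes with too few counts for the rule. Chromosomes 1 and 11 hold the most members, 11 and 10, or 16.9% and 15.4%, where 14.1% and 5.94% of the tested genes lie. No member lies on chromosome 9, which holds 5.58% of the tested genes.

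Among the 18 genes counted in both lines, OsPME1 (LOC_Os03g19610) is one of 2 with a named product. Pectin methylesterases remove methyl groups from cell wall pectin. OsPME1 had 0 counts in all 6 WT libraries. In oscoi1ab it had 3.91, 3.05 and 2.56 CPM under mock, against 2.35, 2.77 and 1.64 CPM after JA. In oscoi2 the mock libraries had 7.37, 5.199 and 6.34 CPM, and those with JA 2.98, 2.23 and 3.26 CPM. Every library of both edited lines lay above every WT library, and the means were above the WT floor by at least 25.4-fold (oscoi1ab) and at least 42.8-fold (oscoi2). The other both-line gene with a named product is LOC_Os05g34520, described as an ulp1 protease, a family that processes and removes the protein modifier SUMO. It had 8 counts in 1 WT library, 0.851, 2.75 and 3.25 CPM in oscoi1ab under mock and 0.278, 0.455 and 0.651 CPM in oscoi2 under mock. After JA the oscoi2 libraries spread from 0.0366 to 2.18 CPM, a range that holds all 3 oscoi1ab JA libraries (0.728 to 1.47 CPM).

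The other both-line genes have no known product or belong to transposons. The unclassified transposon gene LOC_Os11g40640 ranged from 1.18 to 3.64 CPM over the oscoi1ab libraries and from 2.61 to 4.06 CPM over those of oscoi2, with 4 counts in 1 WT library. LOC_Os01g64949 ranged from 0.645 to 4.07 CPM in oscoi1ab and from 2.90 to 4.15 CPM in oscoi2, and was at 0 in every WT library. Os04g0397800 had 5.38, 3.73 and 5.26 CPM in oscoi1ab under mock, against 1.31, 2.00 and 0.985 CPM in oscoi2. These 3 genes were counted in all 12 edited libraries. The retrotransposon gene LOC_Os01g71840 was uneven in oscoi1ab, with 0, 3.61 and 0.186 CPM with DMSO and 0.341, 2.65 and 1.87 CPM with JA, whereas the oscoi2 libraries lay between 0.873 and 3.47 CPM. LOC_Os12g10470 lay between 0.789 and 1.63 CPM in oscoi1ab and between 0.569 and 1.13 CPM in oscoi2, with 0 in WT. Over all 18 genes, the mean over a line ranged from 0.3002 to 3.68 CPM in oscoi1ab (median 1.13) and from 0.329 to 4.56 CPM in oscoi2 (median 0.793).

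The 17 genes counted in oscoi1ab alone had means from 0.330 to 39.4 CPM in that line. The upper end of this range is LOC_Os07g05850, a CACTA transposon gene, with 9.79, 38.2 and 26.5 CPM under mock, against 14.9, 76.1 and 70.7 CPM after JA. The library of replicate 1 was lowest in both treatments. In the other genotypes the gene had 9 counts in 1 WT library and at most 0.36 CPM in oscoi2. LOC_Os01g10940, which encodes a protein similar to S-adenosylmethionine synthetase, the enzyme that makes the methyl donor of the cell, had 2.35, 1.20 and 3.43 CPM under mock, against 1.54, 1.04 and 2.39 CPM after JA. It had a count of 1 in 3 WT libraries and 0 in all 6 oscoi2 libraries.

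OsJAZ15 (LOC_Os03g27900), a TIFY domain gene of the repressors that COI proteins bind, had 0 counts in every WT library. In oscoi1ab it had 1.52, 1.03 and 1.13 CPM under mock, against 0.221, 0.553 and 0.256 CPM after JA. The mock and JA libraries of oscoi1ab did not overlap. In oscoi2 the gene had at most 0.0968 CPM, below the floor in every library. OsENODL22 (LOC_Os11g29910), a plastocyanin-like gene of the early nodulin-like family, was near the minimum, with 0.431 ± 0.354 CPM under mock and 0.293 ± 0.102 CPM after JA in oscoi1ab (SD, n = 3). Its oscoi2 mock libraries averaged 0.229 ± 0.213 CPM (SD, n = 3), so its place among the genes of oscoi1ab alone rests on the minimum. Of the genes without a known product, LOC_Os02g16690 had 1.62, 1.72 and 1.87 CPM under mock, against 0.378, 0.544 and 1.09 CPM after JA, and LOC_Os04g52790 ranged from 0.304 to 1.75 CPM over the 6 libraries. Os05g0372866 had counts in only 3 oscoi1ab libraries (1.37 and 5.72 CPM under mock, 0.829 CPM after JA).

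The 30 genes counted in oscoi2 alone had means from 0.305 to 29.6 CPM in that line, and 14 of them exceeded 1 CPM. LOC_Os03g18779 and LOC_Os03g02470, both conserved hypothetical genes on chromosome 3, lie at the upper end of this range. LOC_Os03g18779 had 49.0, 32.8 and 16.3 CPM under mock, against 40.3, 27.5 and 12.0 CPM after JA, at least 278-fold above the WT floor, with the replicates in the same order in both treatments. LOC_Os03g02470 had 31.0, 12.6 and 41.4 CPM under mock, against 40.5, 10.7 and 38.9 CPM after JA, at least 273.7-fold above the WT floor, and 0 counts in all 12 libraries of WT and oscoi1ab. Replicate 2 was the lowest of LOC_Os03g02470 in both treatments, whereas it was the middle one of LOC_Os03g18779. OsCOI2, the gene edited in this line, is on the same chromosome, but no member lay within 50 places of it.

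The non-coding transcript Os12g0599625 and the retrotransposon gene LOC_Os11g11694 were likewise at 0 in all WT and oscoi1ab libraries. Os12g0599625 had 16.4, 2.67 and 15.3 CPM under mock, against 14.3, 3.36 and 6.52 CPM after JA in oscoi2, and LOC_Os11g11694 lay between 2.56 and 9.46 CPM. The hAT dimerisation domain gene LOC_Os01g36064 was more even, between 3.55 and 5.64 CPM, and LOC_Os04g24770 lay between 1.31 and 3.50 CPM. The other hAT or Ac/Ds genes varied widely between libraries of oscoi2. LOC_Os06g44800 had 7.43, 3.12 and 1.10 CPM under mock, against 0.384, 0.239 and 2.46 CPM after JA, and LOC_Os07g15340 ranged from 0.0574 to 5.14 CPM, with 0 in all libraries of WT and oscoi1ab. The mock and JA groups of both genes overlapped. The Pong gene LOC_Os02g26750 had 0.294 to 1.72 CPM in oscoi2 and 0.0369 to 0.639 CPM in oscoi1ab, so the lines overlapped, whereas the CACTA gene LOC_Os10g11250 had 0.513 to 2.80 CPM in oscoi2 and counts in 1 oscoi1ab library (0.442 CPM). Of the genes with a named product, the lipid transfer protein gene LOC_Os11g40530, of a family that binds lipids in the cell wall space, had 0.555, 1.93 and 1.99 CPM under mock, against 0.841, 0.248 and 0.900 CPM after JA. It also had counts in every oscoi1ab library (0.03685 to 0.452 CPM), so the lines overlapped. OsRH52A (LOC_Os06g40020), a DEAD-box RNA helicase gene, had 0.759 ± 0.396 CPM under mock and 0.245 ± 0.131 CPM after JA (SD, n = 3). LOC_Os08g39540, with a zinc knuckle, a short nucleic acid binding motif, had 0.442 ± 0.208 CPM under mock and 0.815 ± 0.223 CPM after JA (SD, n = 3), and 0 counts in WT and oscoi1ab.

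**Figure D2:**
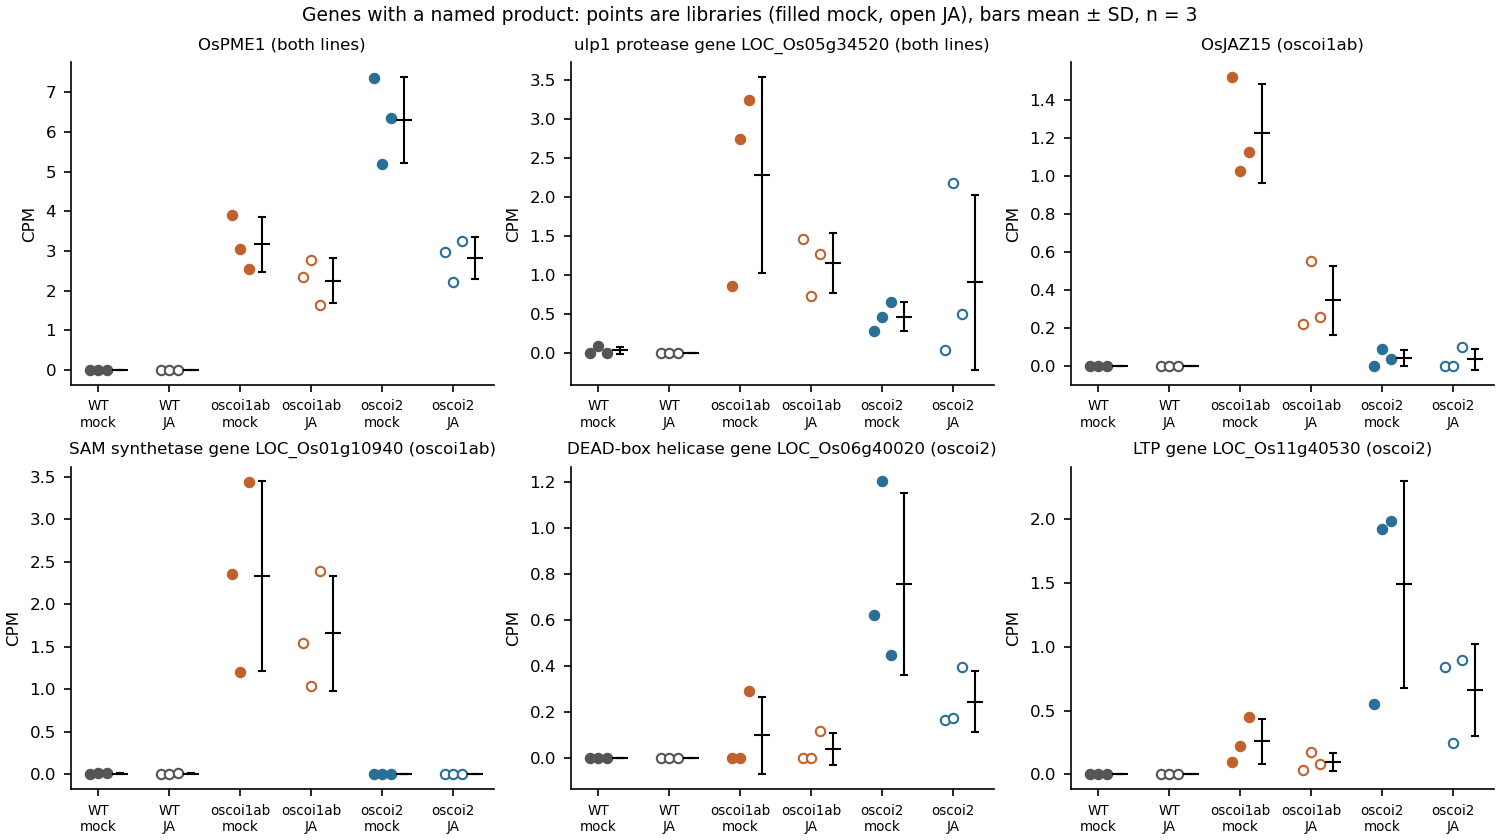
CPM in each library (points, filled for mock and open for JA) with mean ± SD (n = 3) of 6 genes with a named product, by group. OsPME1 is at 0 in WT and above 1.6 CPM in every edited library, and OsJAZ15 exceeds 1 CPM only in the oscoi1ab mock libraries.

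Members differed in how evenly they were counted over the libraries of a line. Of the 18 both-line genes, 14 were above the floor in all 6 oscoi1ab libraries and 13 in all 6 oscoi2 libraries. Of the single-line genes, 10 of 17 were above it in all 6 oscoi1ab libraries and 22 of 30 in all 6 oscoi2 libraries. At the other end, a few members rest on 1 or 2 libraries. Os08g0534400 had 505 counts in 1 oscoi1ab JA library and 0 in the other 17, and LOC_Os06g11830 had 664 and 727 counts in 1 mock and 1 JA library of oscoi2 and 0 elsewhere. One library held most of a gene's level for 4 of the 17 oscoi1ab genes and for 4 of the 30 oscoi2 genes. Among genes whose 3 libraries of each treatment had distinct values, the order of the 3 replicate numbers was the same under mock and after JA for 13 of 31 members in oscoi1ab (41.9%, against 20.1% of all genes) and for 10 of 45 in oscoi2 (22.2%, against 24.6%).

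Some members are neighbours. Taking genes within 3 places of each other in identifier order, 11 members form 5 runs. On chromosome 3, OsPME1 follows Os03g0309250, a hypothetical gene, and LOC_Os03g19600, a retrotransposon gene. All 3 were at 0 in WT. Os03g0309250 had means of 0.3002 CPM in oscoi1ab and 0.365 CPM in oscoi2, and LOC_Os03g19600 had 0.262 and 0.448 CPM, so it counts as an oscoi2 gene only by the minimum. The next gene on the near side, LOC_Os03g19590, had 60.7, 59.8 and 51.9 CPM in WT, oscoi1ab and oscoi2, and the 3 genes beyond OsPME1 had at most 0.0441 CPM. The counted stretch thus ends at an expressed gene on one side and at genes near 0 on the other.

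On chromosome 7, the members Os07g0511301 (1.33 CPM in oscoi1ab, 1.14 CPM in oscoi2) and LOC_Os07g32700 lie between LOC_Os07g32680 and LOC_Os07g32710. Both outer genes are described as retrotransposon proteins and are not members, since they had 310 and 2033 counts over the WT libraries. LOC_Os07g32710 had means of 3.23 CPM in WT, 407.3 CPM in oscoi1ab and 314.9 CPM in oscoi2, and LOC_Os07g32680 had 0.489, 12.6 and 6.77 CPM. The pattern of this run therefore extends to genes that the WT limit kept out. Outside it, LOC_Os07g32670 had 69.8, 72.9 and 63.9 CPM and LOC_Os07g32730 had 6.62, 7.68 and 9.56 CPM in WT, oscoi1ab and oscoi2.

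On chromosome 1, Os01g0852800 and LOC_Os01g63393 lie 4 and 3 places before OsCOI1a, one of the genes edited in oscoi1ab, yet both were counted in oscoi2 as well. LOC_Os01g63393 had 1.01 CPM in oscoi1ab and 1.83 CPM in oscoi2, and Os01g0852800 had 0.934 and 2.21 CPM, with 0 counts in 3 edited libraries in which LOC_Os01g63393 had 121 to 132 counts. Where both were counted their ratio was 0.882 to 1.63, and each has an identifier of 1 annotation only, so they may be the same transcripts counted under the MSU and the RAP-DB model. LOC_Os01g63380, the next gene before them, was at 0 in WT and at 0.210 and 0.194 CPM in the edited lines, below the minimum. The 2 genes between the run and OsCOI1a had 10.4 to 24.5 CPM in all 3 genotypes.

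The run on chromosome 5 was counted in oscoi1ab alone. The CACTA gene LOC_Os05g36230 had 0.534 CPM there and LOC_Os05g36240 1.17 CPM, against at most 0.00952 CPM in the other genotypes, and the preceding LOC_Os05g36220 had 0.239 CPM in oscoi1ab and 0 in the others. On chromosome 11, LOC_Os11g40640 (above) and LOC_Os11g40650, an expressed gene with 0.358 CPM in oscoi1ab and 0.343 CPM in oscoi2, are both MSU models and lie next to each other. The only member near OsCOI1b was LOC_Os05g37870, an oscoi2 gene 20 places away.

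**Figure D3:**
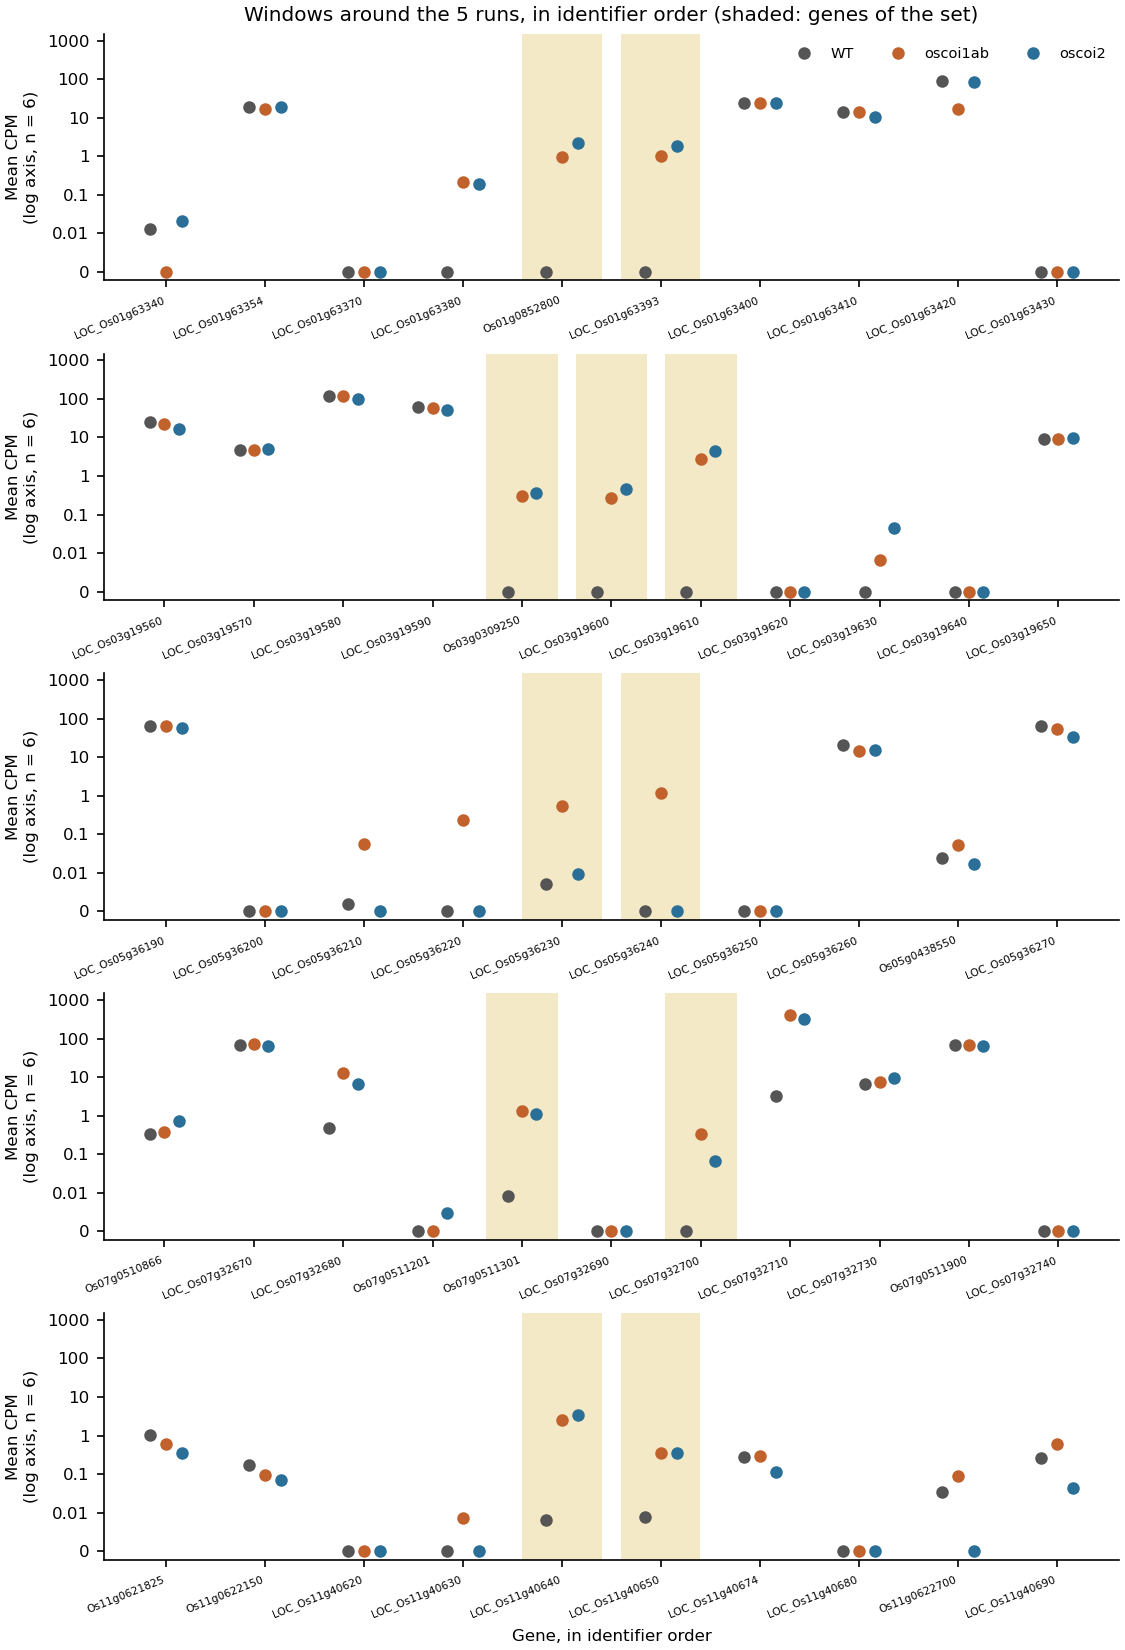
Mean CPM (n = 6 libraries, log axis with 0 at the bottom) of the genes in each of 5 windows, in identifier order, in WT (grey), oscoi1ab (orange) and oscoi2 (blue). Shaded genes belong to the set; in the fourth window the unshaded LOC_Os07g32710 is at 3.23 CPM in WT and at 407.3 and 314.9 CPM in the edited lines.

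The tested genes next to members were compared with WT, which the rule did not do for them. The nearest tested gene that is no member, on each side of each member, gave 116 genes. Under mock, 3 of 116 (2.59%) were called in oscoi1ab, where 0.162% of all genes tested were called, and 2 of 116 (1.72%) in oscoi2, where 0.375% were called (FDR under 0.01 and log2FC of at least 1 in either direction by edgeR's quasi-likelihood test). After JA it was 3 of 116 in oscoi1ab, with 0.162% of all genes called, and 10 of 116 (8.62%) in oscoi2, with 3.92% called. LOC_Os07g32680 and LOC_Os07g32710 were called in all 4 comparisons. Both flank the run on chromosome 7, so they do not count as separate places. LOC_Os07g05840, LOC_Os11g34610 and Os05g0425600, also among the genes called, had summed WT counts of 23, 58 and 16. They passed the count filter through edited libraries in which they were high, so their calls are a description. For LOC_Os07g32710 the log2FC was 6.88 in oscoi1ab and 6.68 in oscoi2 under mock (standard errors 0.48 and 0.47), and for LOC_Os07g32680 it was 4.71 and 4.54 (standard errors 0.41 and 0.40). DESeq2 called 6 genes in oscoi1ab under mock and 6 after JA, and 7 and 12 in oscoi2. No share over all genes is given for DESeq2, so these counts cannot be set against the shares above.

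The third gene called in oscoi1ab was LOC_Os07g05840, beside LOC_Os07g05850. It had 28.2, 77.0 and 59.4 CPM under mock, against 30.2, 173.9 and 144.7 CPM after JA in oscoi1ab, and a summed WT count of 23. Its counts were 2.02 to 2.88 times those of LOC_Os07g05850 in the 6 oscoi1ab libraries, and both genes were lowest in replicate 1 of each treatment. On its other side lies OsJAZ2, a JAZ repressor gene, with 0.399 ± 0.194 CPM in WT and 0.277 ± 0.0945 CPM in oscoi1ab under mock (SD, n = 3) and no call in that comparison (FDR 1.0). Of the 10 genes called in oscoi2 after JA, 7 were higher and 3 lower than in WT (1.71% and 2.22% of all genes). Among the lower is LOC_Os01g71860 of glycosyl hydrolase family 17, which had 3.31 to 3.80 CPM under mock and 747 to 849.5 CPM after JA in WT, and a log2FC of -2.76 (standard error 0.56) in oscoi2 after JA. Among the higher is LOC_Os01g64960, a chlorophyll-binding protein gene (log2FC 2.46, standard error 0.44). Its mock CPM was 2.11 ± 1.27 in WT, 8.88 ± 1.61 in oscoi1ab and 4.60 ± 1.47 in oscoi2 (SD, n = 3). Neither mock difference from WT was called. The leaf marker sum in WT was 1016 to 2618 CPM under mock and 124 to 245 CPM after JA. In oscoi2 it was 383 to 1002 CPM and 313 to 725 CPM. The paper reports photosynthesis genes as repressed by JA in WT, so the sum after JA does not measure leaf RNA alone. The part of leaf RNA in the difference of LOC_Os01g64960 was not tested.

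Mock and JA libraries were compared within each edited line. The rule pooled both treatments, but used plain CPM, which after JA lies below the TMM scale of the test. The gap is 0.36 in oscoi1ab and 0.15 in oscoi2 (log2), so entry leans towards mock. A member can also have entered through 1 treatment alone, and a difference of such a member is not independent of the rule. Of the 35 members counted in oscoi1ab, 25 had a mean of at least 0.3 CPM in both treatments, 8 only under mock and 2 only after JA, and of the 48 counted in oscoi2 it was 35, 9 and 4. In oscoi1ab, 1 of 35 was called after JA by edgeR's quasi-likelihood test (15.6% of all genes tested were called, and 4.68% of those with a mean under 1 CPM), and that gene is one of the 2 that entered through JA. In oscoi2, 0 of 48 were called (4.46% of all genes and 0.567% of the low ones). At an unadjusted p under 0.05 there were 3 of 35 and 2 of 48 members, where 45.5% and 30% of all genes had such a p, and DESeq2 called 1 member in each line. The members were measured less precisely than most genes, with a median standard error of log2FC of 1.03 and 0.94 for the members counted in the line, against 0.24 over all genes, so changes of a size common elsewhere would be missed. The median log2FC was -0.13 over the 35 members in oscoi1ab and 0 over the 48 in oscoi2, beside -0.03 and -0.01 over all genes.

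The gene past the limits was the retrotransposon gene LOC_Os07g32700, of the chromosome 7 run. In oscoi1ab it had 0.00895, 0.0484 and 0.0621 CPM under mock, against 0.368, 0.627 and 0.868 CPM after JA. The mock libraries were all below the floor, so the gene is in the set, and past the count filter, through its JA libraries, and its fitted log2FC of 4.27 (standard error 1.08, FDR 0.0075) describes values that chose it. The FDR was 0.0232 without the count filter (log2FC 4.25) and 0.0101 to 0.0273 without any 1 of oscoi1ab mock 1, 2 or 3, oscoi1ab JA 1 or 2, oscoi2 mock 3 or oscoi2 JA 1 or 2. Without oscoi1ab JA 3 the gene fell below the count filter. In oscoi2 it had 0.0285 to 0.115 CPM under mock and 0.0548 to 0.0580 CPM after JA. Its neighbour LOC_Os07g32680, which the rule did not choose, rose after JA in oscoi1ab (log2FC 1.71, standard error 0.34, FDR 0.00080) and in WT (log2FC 1.77, standard error 0.39, FDR 0.0019), and in oscoi2 its log2FC was 0.49 (standard error 0.33, FDR 0.36).

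For OsPME1 the mock and JA libraries of oscoi2 did not overlap, and the log2FC was -1.01 (standard error 0.29, FDR 0.031), which did not pass the limit of 0.01. In oscoi1ab it was -0.13 (standard error 0.29, FDR 0.77). OsJAZ15 had a log2FC of -1.47 in oscoi1ab with a standard error of 1.32 (FDR 0.43). Of the 48 members counted in oscoi2, the largest estimate was that of Os05g0425650, which also entered through its JA libraries, with 0.182, 0.0285 and 0.150 CPM under mock, against 1.55, 1.83 and 1.28 CPM after JA, a log2FC of 3.82 (standard error 1.31) that edgeR did not call (FDR 0.060) and DESeq2 did (FDR 0.0097). Its neighbour Os05g0425600 was higher in oscoi2 than in WT after JA (log2FC 7.69, standard error 1.10, FDR 0.00023), with 3.93, 4.30 and 3.03 CPM in oscoi2 and at most 0.0365 CPM in the WT JA libraries. Os05g0425600 had a summed WT count of 16 and passed the count filter through its oscoi2 libraries, so its call is a description. The 2 genes lie next to each other, and whether they share reads was not tested. Mock and JA groups did not overlap for 8 of the 35 members counted in oscoi1ab and for 9 of the 48 counted in oscoi2, where 57.7% and 35.9% of all genes, and 35.6% and 20.5% of the genes under 1 CPM, had groups that did not overlap. In each line 7 of these members were lower after JA, where 44.4% and 25.8% of all genes were lower without overlap. These counts use plain CPM, which lies 0.36 and 0.15 below the TMM scale (log2) after JA in oscoi1ab and oscoi2.

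The 2 edited lines were compared with each other for the 18 both-line genes only, since the others were sorted by this difference. None of the 18 was called in oscoi2 against oscoi1ab by edgeR's quasi-likelihood test, under mock (0.738% of all genes called) or after JA (4.49%), and none had a called difference of the JA response (3.37%). At an unadjusted p under 0.05 there were 3, 2 and 0 of the 18 genes, where 25.4%, 31.0% and 23.7% of all genes had such a p, and DESeq2 called 1, 1 and 0. The estimates under mock ran from -2.23 to 1.07 on the log2 scale, with 12 of 18 above 0, and after JA from -2.10 to 1.70, with 9 of 18 above 0. OsPME1 was higher in oscoi2 under mock (log2FC 1.07, standard error 0.29, FDR 0.037) with groups that did not overlap, and after JA the estimate was 0.19 (standard error 0.29). Os04g0397800 was lower in oscoi2 under mock (log2FC -1.67, standard error 0.45, FDR 0.032; called by DESeq2, FDR 0.0052). The Pong transposon gene LOC_Os11g17954 had 2.77, 3.44 and 3.96 CPM in oscoi1ab and 0.948, 0.285 and 1.45 CPM in oscoi2 under mock, and a log2FC of -2.10 after JA (standard error 0.62, FDR 0.035; called by DESeq2, FDR 0.0082). The remaining estimates are too imprecise to show that the levels of the shared genes were alike.

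**Figure D4:**
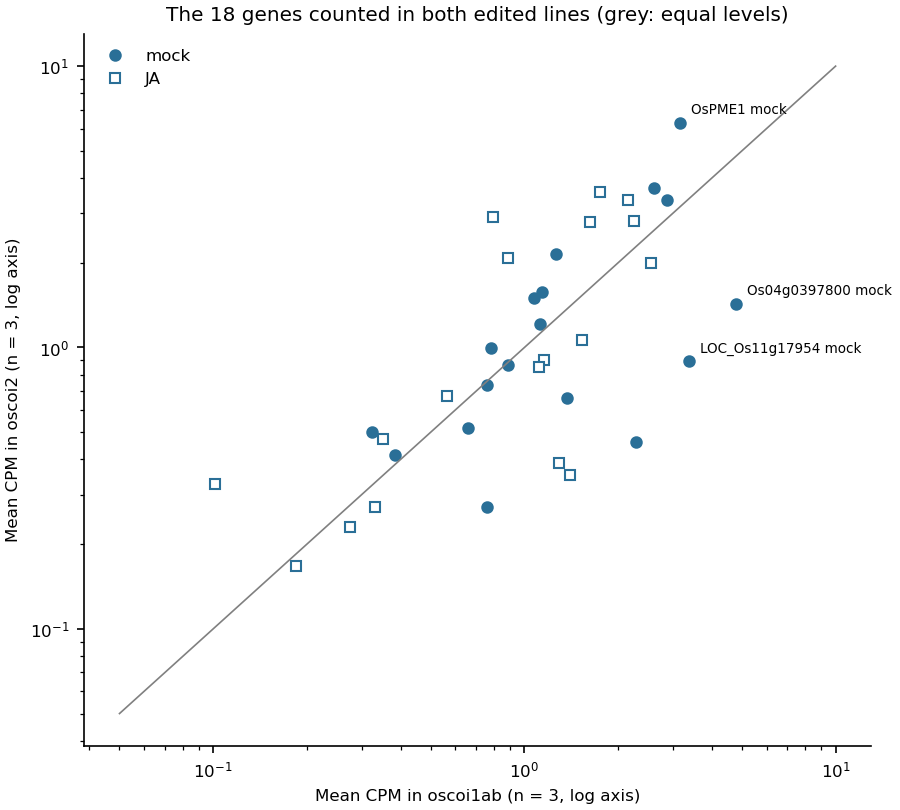
Mean CPM (n = 3) of the 18 both-line genes in oscoi1ab (horizontal, log axis) and oscoi2 (vertical, log axis), filled circles for mock and open squares for JA, with the line of equal levels in grey. OsPME1 lies above the line under mock, and Os04g0397800 and LOC_Os11g17954 lie below it.

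A list of 14 genes that act on transposon silencing was examined. It holds DNA methyltransferases (OsMET1a, OsMET1b, OsCMT3a, OsDRM2), chromatin remodellers (OsDDM1a, OsDDM1b) and the histone methyltransferase SDG714. The small RNA factors are OsRDR2, OsRDR6, OsDCL3a, OsDCL3b, OsAGO4a and OsAGO4b. The list also holds OsROS1a, a demethylase, which removes DNA methylation and so acts against silencing. In oscoi1ab against WT, 0 of 14 were called by edgeR's quasi-likelihood test under mock and after JA, where 0.162% of all genes were called in each (0 and 3 at an unadjusted p under 0.05, 0 and 0 by DESeq2), with estimates from -0.31 to 0.25 and from -0.37 to 0.37 on the log2 scale. In oscoi2 under mock 0 of 14 were called, where 0.375% of all genes were (3 at an unadjusted p under 0.05, 0 by DESeq2), with estimates from -0.33 to 0.75. With so few genes called in all, a count of 0 in a list of 14 says little about these genes. For the line comparisons with WT, no share over all genes is given beside the counts at an unadjusted p.

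After JA, OsDDM1b was higher in oscoi2 than in WT, 1 call of 14 where 3.92% of all genes were called (1 by DESeq2). By edgeR's quasi-likelihood test, 8 of 14 had an unadjusted p under 0.05. The estimates ran from -0.29 to 1.05 on the log2 scale, with a median of 0.33, beside 0.02 over all genes. OsDDM1b had 15.0 ± 0.386 CPM in WT, 15.2 ± 1.24 CPM in oscoi1ab and 34.4 ± 5.67 CPM in oscoi2 after JA (SD, n = 3), against 51.2 ± 5.54, 47.8 ± 7.66 and 50.4 ± 4.37 CPM under mock. The log2FC of oscoi2 against WT after JA was 1.05 (standard error 0.14, FDR 0.00010), and without oscoi2 JA 3 it was 0.92, under the fold minimum, while OsMET1b was then called. OsMET1b had 5.36 ± 0.624 CPM in WT and 11.1 ± 1.89 CPM in oscoi2 after JA (SD, n = 3), a log2FC of 0.91 (FDR 0.0036), and OsAGO4a had 53.8 ± 2.48 and 91.8 ± 4.16 CPM (SD, n = 3), a log2FC of 0.63 (FDR 0.00061), both under the fold minimum. Within WT, 3 of 14 were called after JA by edgeR's quasi-likelihood test, where 14.0% of all genes were called in either direction. All 3 were lower: OsDDM1b (log2FC -1.43, standard error 0.14), OsMET1b (-1.09, standard error 0.19) and OsAGO4a (-1.002, standard error 0.10). DESeq2 called 2 of 14 and not OsAGO4a, whose estimate lay at the fold minimum. In oscoi1ab OsDDM1b and OsCMT3a were lower after JA (-1.30 and -1.10), where 15.6% of all genes were called. In oscoi2 0 of 14 were called, where 4.46% were. At an unadjusted p under 0.05 by the same test there were 5 of 14, where 30% of all genes had such a p, and DESeq2 called 0. The difference of the JA response between oscoi2 and WT was 1.02 on the log2 scale for OsDDM1b (standard error 0.19, FDR 0.0032) and 0.96 for OsAGO4a (standard error 0.14, FDR 0.00075). The fold minimum of 1 lies between them, so 1 of 14 was called, where 2.94% of all genes were, and 0 by DESeq2.

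**Figure D5:**
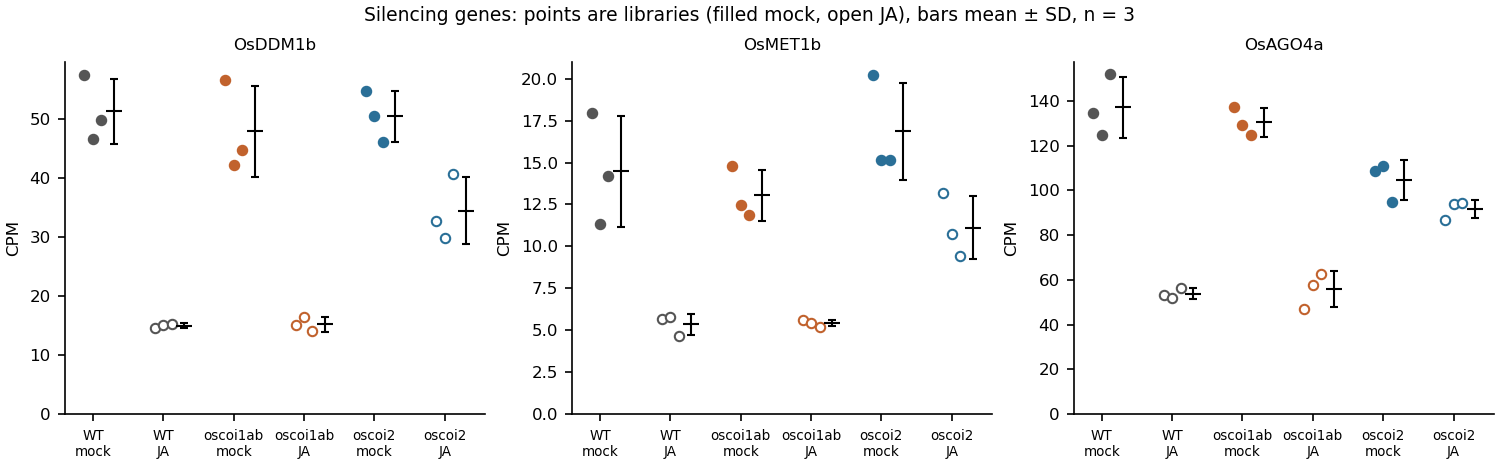
CPM in each library (points, filled for mock and open for JA) with mean ± SD (n = 3) of OsDDM1b, OsMET1b and OsAGO4a by group. After JA the 3 genes are higher in oscoi2 than in WT and oscoi1ab, and under mock the genotypes overlap for OsDDM1b and OsMET1b.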

How the data were processed

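Counts per gene were those deposited by the authors, who trimmed reads with CutAdapt, used HiSat2 for mapping (references MSU7 and RAP-DB), assembled transcripts with StringTie and made estimated counts with an in-house script, merged over both annotations without normalization. All values are whole numbers, and no versions are given in the sources used here. Samples were assigned by their deposited titles. Members were found by the rule of the opening from plain CPM. The members and gene lists were chosen with earlier results of these data known. Runs and neighbours used identifier order within a chromosome, with RAP-DB-only genes placed by their numbers.

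The 30907 genes with a summed count of at least 180 went into 1 fit of 6 groups (quasi-likelihood F test of edgeR 4.0.16, R 4.3.3, scaled by TMM) and were called at a Benjamini-Hochberg FDR under 0.01 over all genes tested and a log2FC of at least 1. All 65 members passed that filter, helped by the lines that chose them. The standard error is the log2FC divided by the square root of F. TMM scaling shifted log2FC against plain CPM by 0.35, 0.36 and 0.15 for JA in WT, oscoi1ab and oscoi2, and by -0.14 to 0.08 between lines. The script was tested on simulated data for JA in oscoi2 over 30907 genes, where 81 of 100 changes of 2 and 97 of 100 of 3 on the log2 scale were recovered. The changed genes were drawn from all genes tested and simulated with the same fixed spread. These rates do not hold for the 65 members, which were measured less precisely. Alternatives were DESeq2 1.42.0, its size factors, no count filter, the replicate number as a block, each library left out, and other limits of the rule. Shares called over all genes are given for edgeR only. Equal replicate numbers went together in WT and oscoi1ab under mock (r of 0.477, 0.299 and 0.259 over 17643 genes after group means were removed) and in WT under mock and after JA (0.34, 0.376 and 0.286). Between mock and JA, r was 0.0593, 0.251 and 0.158 in oscoi1ab and 0.213, 0.465 and 0.0954 in oscoi2. Between WT and oscoi1ab after JA it was 0.0873, 0.321 and 0.296. In the other pairs of groups checked, r was near 0 or negative at some numbers. The main fit used no block. Figures were drawn with matplotlib 3.10.9.

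Genes are named by a rule: the 10 both-line members with the largest lower line mean, the 6 of each single-line class with the largest mean, members with a named product, members called, members in runs, and silencing genes called. Os08g0534400, LOC_Os06g11830, Os05g0425650, LOC_Os11g17954, neighbours and genes at the limits were named after their values were seen. Gene descriptions come from the study's tables. RefSeq names of another assembly were found for 8 of the 14 silencing genes and for 0 members. Authors' comparison values were not used.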

Additional observations from a re-analysis of the deposited data

Results flagged for a closer look

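The JA response of OsDDM1b differed between oscoi2 and WT. The difference of the 2 log2FC values was 1.02 (standard error 0.19, FDR 0.0032, edgeR's quasi-likelihood test of the interaction), with log2FC values of -1.43 in WT and -0.40 in oscoi2. It lay at the fold minimum: DESeq2 gave 0.9975 and DESeq2's size factors 0.9974, and without WT mock 1, WT JA 1, oscoi2 mock 3 or oscoi2 JA 3 it was 0.89 to 0.9963, below the limit of 1 in each. No both-line member had a called difference of the JA response between the edited lines, and groups of 3 libraries are too small for a check of single outlying libraries.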

How the results depend on the processing

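The size of the set depends on its limits. Its 65 genes became 42 with a summed WT count of 0, 100 with a minimum of 0.2 CPM, 50 with 0.5 CPM and 90 with a limit of 22 counts; the both-line class of 18 became 11 and 29, and the oscoi1ab class of 17 became 10 and 27, under the first 2 of these. On the TMM scale there were again 65, of which 63 were shared. Leaving out 1 library gave 66 to 86 genes, 17 to 24 in both lines, 16 to 23 in oscoi1ab alone and 29 to 40 in oscoi2 alone. The WT limit stayed at 11 counts when a WT library was left out, so those settings could only add genes. They kept all 65 and gave 70 to 86, whereas leaving out an edited library gave 66 to 71. Of all 65 members, those called after JA in oscoi1ab numbered 3 by DESeq2 (LOC_Os10g35160 and LOC_Os11g34600, both of the oscoi2 class, beside LOC_Os07g32700) and 0 with the replicate block (LOC_Os07g32700 had a log2FC of 4.30 and an FDR of 0.0143), and 0 to 2 without 1 library: 2 without WT mock 1, and 0 without oscoi1ab mock 2, oscoi1ab JA 2 or 3, oscoi2 mock 3, or oscoi2 JA 1 or 2. The gene was LOC_Os10g35160 without a count filter or oscoi1ab mock 1, LOC_Os11g34600 without oscoi1ab mock 3 and LOC_Os12g06230 without oscoi1ab JA 1. In oscoi2 DESeq2 called 1 (Os05g0425650), and between the lines 1 under mock and 1 after JA. Neighbours called were 6, 6 and 7 by DESeq2 in place of 3, 3 and 2, and 2 to 4, 2 to 4, 2 to 5 and 7 to 11 without 1 library, the 5 being without oscoi2 mock 2. Members called in oscoi2, and both-line members between lines or in the JA response, stayed at 0 without any 1 library. The block changed no other count by over 1.5 times and none of the silencing calls after JA in WT. Other counts stayed within 1.5 times. The members' values rest on few counts: several lie near 11.1 counts, and models of the 2 annotations, repeated elements and overlapping genes may share reads, which the counts cannot separate. The causes of these shifts were not tested.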
